A study of Mus musculus with 33 samples.

Results

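Oxidative phosphorylation genes were followed in 33 RNA-seq libraries of mouse colon organoid lines, as 13 genes of the mitochondrial genome and 97 genes of the nucleus. The mitochondrial group took every protein-coding gene whose symbol began with mt-Nd, mt-Co, mt-Cytb or mt-Atp, and the nuclear group every protein-coding gene beginning with Nduf, Sdha to Sdhd, Uqcr, Cox4 to Cox8 or Atp5. Together these were 110 of the 32285 gene rows of the count files, of which 31674 had a symbol. A test was possible for 99 of them, 9 mitochondrial and 90 nuclear, that reached a scaled abundance of 1 CPM (counts per 1e+06 counts of the library) or more in 3 or more libraries.

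Oxidative phosphorylation is the last stage of respiration in the mitochondrial inner membrane. Complexes I to IV pass electrons from NADH and succinate to oxygen. Complexes I, III and IV also pump protons, and complex V, the ATP synthase, lets the protons flow back and makes ATP. Complexes I, III, IV and V are built from subunits of both genomes, complex II from nuclear subunits only, so the respiratory chain needs the products of both. In the colon the differentiated colonocytes are rich in mitochondria, and many cultured tumour cells also draw on glycolysis.

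The study set organoid lines of different origin side by side. Control was a line of non-induced AKP organoids, that is colon organoids with Cre-dependent tumour alleles, among them floxed Apc and Trp53 (Apc fl/fl, Trp53 fl/fl), that carried a lentiviral, doxycycline-dependent Cre switched on by blue light (OptoCre) but were not lit. Organoid AKP was the same kind of culture after OptoCre activation, kept as conventional organoids. Mini-colon AKP #i to #v were 5 organoid lines taken out of tumour-bearing mini-colons, which are tubes of the same epithelium grown in a microfluidic chip, after OptoCre activation. The study calls #v crypt-enriched and #i lumen-enriched, after the site of most tumours in the mini-colons the lines came from. In vivo AKP came from colon tumours of mice of the same genotype in which tamoxifen switched on a Cdx2-driven Cre, so recombination there was set by the Cdx2 promoter and not by light. Control, organoid AKP and in vivo AKP had 6 libraries each and every mini-colon line had 3. Before RNA extraction all lines were kept in basal medium without growth factors, and each mini-colon line is a single derived line, so a difference between lines is a difference between those lines. The study's text counts the libraries of a line as separate cultures, which the labels do not describe further. It also speaks of independent sets of samples and of OptoCre lines made anew for each replication. Which libraries come from separate mice or derived lines is not given. The p-values are therefore read as the spread between cultures of a line, and not between mice or independently derived lines.

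Libraries were made with QuantSeq, which primes on the poly(A) tail and reads the 3′ end of each transcript. A value therefore compares a gene with itself between libraries, and counts of different genes are not compared as levels. Total counts were 2438672 to 8256526 per library. The file names also carry a library letter, E or F, whose meaning is not given in the sources used here. Replicates 1 to 3 of control, organoid AKP and in vivo AKP had letter E and replicates 4 to 6 letter F, mini-colon lines #i, #ii and #iii had letter E, and #iv and #v had letter F. Depth moved with the letter, at 2660584 to 2841963 counts in control libraries with E and 6057927 to 7852555 in those with F. All 7 epithelial markers had counts in every line, and their summed level was 9365 to 10779 CPM in control and 2882 to 3556 CPM in the AKP libraries. The summed immune and endothelial markers stayed at or under 3.404 and 4.401 CPM in every library, with Adgre1 listed at 0 in all 33. Of the fibroblast and muscle markers the mesenchymal filament gene Vim reached 274.9 CPM in in vivo AKP, while the collagen gene Col1a1 stayed at or under 1.09 CPM.

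Not all 13 mitochondrial genes were counted alike. Over the 33 libraries mt-Nd1 had 1060481 reads, mt-Nd2 1647667, mt-Nd4 1105958, mt-Cytb 671802, mt-Co1 146807, mt-Nd5 100585 and mt-Nd6 5890. The other 6, mt-Nd3, mt-Atp6, mt-Atp8, mt-Co3, mt-Co2 and mt-Nd4l, had 140, 51, 45, 7, 6 and 2 reads. These 6 are the genes that lie whole inside a nuclear copy of mitochondrial DNA. The stretch chrM:6394-11042 of GRCm39 has a counterpart on the minus strand at chr1:24650616-24655265 that matched 99.98% of 4649 aligned bases, with 1 mismatch, inside mt-Nd3, and 1 gap. The copy ends inside mt-Co1, where it holds 31.0% of the gene including its 3′ end, and inside mt-Nd4, where it holds 63.6% of the gene but not its 3′ end. The pair of stretches below shows a gene end that is the same in both places, with no capitals because no base differs.

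mt-Co3 end, chrM:9331-9390, plus strand: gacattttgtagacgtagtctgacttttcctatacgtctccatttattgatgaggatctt
chromosome 1 copy, chr1:24652269-24652328, minus strand: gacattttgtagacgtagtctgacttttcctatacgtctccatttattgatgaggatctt

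The next pair crosses the point inside mt-Nd4 where the copy stops, with the bases past it in capitals, and the third stretch is the end of mt-Cytb, which has no copy.

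mt-Nd4, chrM:11013-11072, plus strand: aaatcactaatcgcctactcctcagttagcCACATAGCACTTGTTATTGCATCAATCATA
chromosome 1 at the same place, chr1:24650586-24650645, minus strand: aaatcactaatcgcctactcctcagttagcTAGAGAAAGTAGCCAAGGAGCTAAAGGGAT
mt-Cytb end, chrM:15229-15288, plus strand: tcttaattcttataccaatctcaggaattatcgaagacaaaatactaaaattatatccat

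All windows of 50 bases in mt-Co2, mt-Atp8, mt-Atp6, mt-Co3 and mt-Nd4l, and 99.0% of those in mt-Nd3, occurred elsewhere in the genome, against 0% in mt-Nd1, mt-Nd6 and mt-Cytb. Genes with a repeated 3′ end had few reads in some cases and many in others. The last 300 bases of mt-Co1 were copied in full. Among nuclear genes with 80.1% or more of their last windows copied, Cox7c, a small subunit of complex IV, had 99.2% and 87027 reads. Atp5mj had 80.1% and 39551 reads, and Atp5mc1 95.6% and 10587. Ndufs3 had 81.7% and 3152 reads, Atp5mg 100% and 1366, Ndufs5 91.2% and 566, and Atp5mc2 100% and 423. How reads matching several places were treated is not given in the sources used here, and the part of the copy in the low counts was not tested. mt-Nd3 and mt-Atp8 still passed the filter on low values. mt-Co2, mt-Co3, mt-Atp6 and mt-Nd4l did not, so the mitochondrially encoded core of complex IV was read through mt-Co1 alone.

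**Figure D1:**
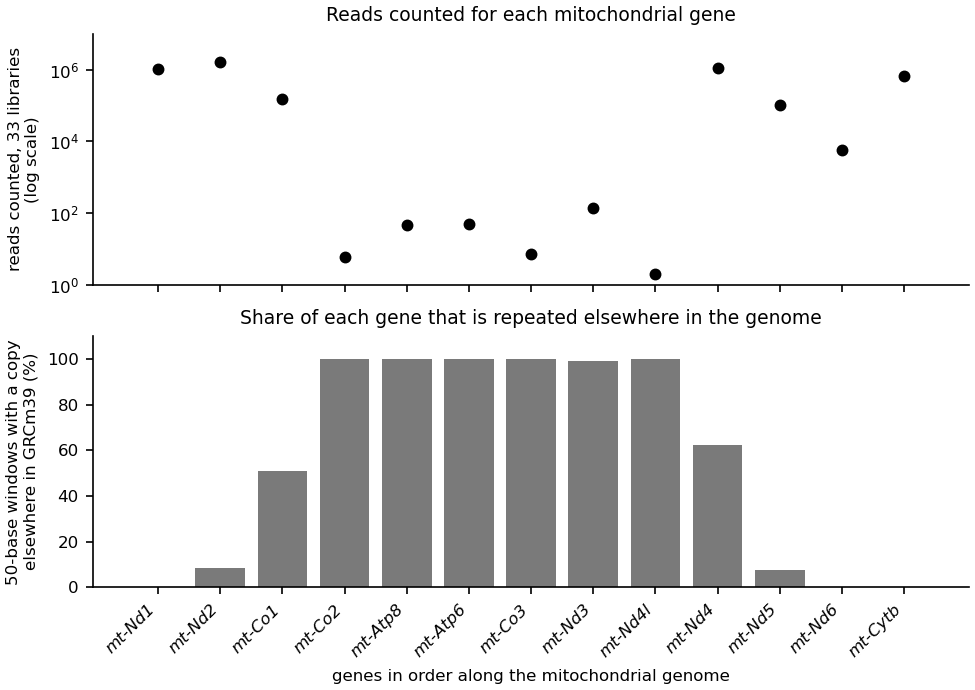
Reads counted over 33 libraries for each mitochondrial gene (top, log axis) and the share of its 50-base windows that occur elsewhere in GRCm39 (bottom, percent), with genes in genome order. The 6 genes at 99.0% or above had 2 to 140 reads, while mt-Nd2 had 1647667.

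Single genes such as mt-Co1 overlapped, but summed over the group, mitochondrial transcripts were lower in every AKP library than in every control library. Their summed level was 39072 CPM in the lowest, 45520 in the median and 52065 in the highest control library. In organoid AKP it was 23674, 28451 and 34320 CPM, and in in vivo AKP 27788, 30582 and 33830 CPM. The mini-colon libraries lay between 23428 and 37111 CPM, apart from replicate 1 of #ii at 13014 CPM. As a share of all counts, the group took 3.93% to 4.88% in control and 1.36% to 3.81% in the 27 AKP libraries, without overlap. The log2 ratio of the mean sums in organoid AKP against control was -0.67, and it was -0.70 in libraries with letter E and -0.64 in those with letter F. In bulk RNA, fewer cells of a type and less RNA per cell cannot be told apart.

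The nuclear group did not follow. Its summed level was 17930 to 21654 CPM in control and 15864 to 20086 CPM in organoid AKP, and which was higher depended on the letter. With letter E, control libraries were at 17930 to 18608 CPM and organoid AKP libraries at 17896 to 20086 CPM, while with letter F they were at 20746 to 21654 and 15864 to 17451 CPM. The log2 ratio of the mean nuclear sums was 0.07 with E and -0.36 with F (letters set apart after seeing the data). Mini-colon lines #i, #ii and #iii, all with E, lay between 18392 and 22422 CPM, and #iv and #v, both with F, between 16725 and 18429 CPM. The log2 ratio of the mitochondrial to the nuclear sum was 1.10 to 1.33 in control, 0.24 to 0.57 in organoid AKP with E and 0.76 to 1.11 with F, and -0.72 to 1.12 over all AKP libraries, so the highest AKP libraries reached the lowest control library.

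**Figure D2:**
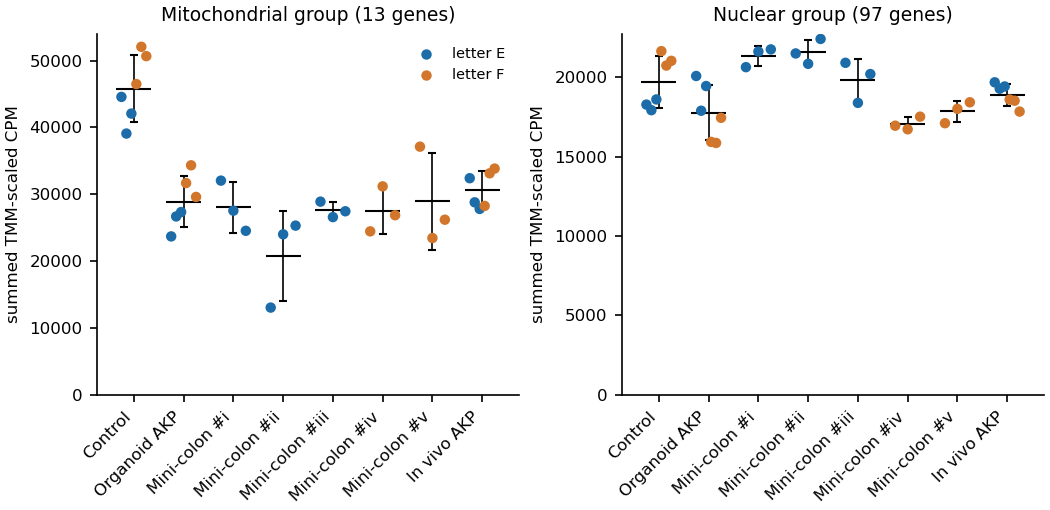
Summed TMM-scaled CPM of the mitochondrial group (left) and the nuclear group (right) in each library, as points coloured by library letter, with the mean and SD of each line. Control libraries sit at 39072 to 52065 in the left panel, above all AKP libraries. In the right panel the control range overlaps that of each AKP line except #iv. Some AKP lines lie apart there, such as #ii at 20854 to 22422 and #iv at 16725 to 17522.

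Organoid AKP was set against control, conventional organoids with and without oncogenic recombination. The study reports that healthy organoids did not grow in the basal medium used before RNA extraction. It also expanded tumour organoids in a medium without the added growth factors of the full organoid medium. The part of growth or medium in this comparison was not tested. With edgeR's quasi-likelihood test and Benjamini-Hochberg adjustment over 13606 genes, 6 of the 9 tested mitochondrial genes were lower and 0 higher. The comparison was broad, with 33.6% of all tested genes lower and 37.3% higher, so these shares are the background for every count in it. The median log2 change of the 9 was -0.51, beside 0.06 over all tested genes. At an unadjusted p below the same threshold the count higher was also 0, as it was by limma-voom and by DESeq2, and limma-voom called 5 lower, all but mt-Nd1.

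mt-Cytb, which encodes the cytochrome b core of complex III, fell most. Its level was 6935, 8395 and 9551 CPM in the lowest, median and highest control library and 2619, 3397 and 4040 CPM in organoid AKP. The groups did not overlap, and the log2 change was -1.32 ± 0.15 (SE; adjusted p = 2.24e-09 by edgeR). In the mini-colon lines mt-Cytb was 3504, 3507 and 3149 CPM in #i, 1344, 2867 and 2870 CPM in #ii, 3211, 2606 and 2653 CPM in #iii, 3037, 3814 and 3570 CPM in #iv, and 5599, 3398 and 4007 CPM in #v. Not one of these reached the lowest control library, and the lowest of all was replicate 1 of #ii.

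Among the subunits of complex I that the mitochondrion encodes, mt-Nd4 and mt-Nd5 belong to the proton-pumping arm. mt-Nd4 was at 9750, 12097 and 13862 CPM in control and 5658, 6577 and 7422 CPM in organoid AKP, a log2 change of -0.88 ± 0.14 (SE; edgeR adjusted p = 1.5e-06) without overlap. mt-Nd5 was at 768, 995 and 1108 CPM in control and 425, 613 and 821 CPM in organoid AKP, with a log2 change of -0.65 ± 0.16 (SE; edgeR adjusted p = 0.000443) and ranges that overlapped. mt-Nd2 changed by -0.43 ± 0.15 on the log2 scale (SE; edgeR adjusted p = 0.0108) and mt-Nd1 by -0.35 ± 0.15 (SE; edgeR adjusted p = 0.0461). The mt-Nd1 call was lost without replicate 5 of control (adjusted p = 0.152) or replicate 6 of organoid AKP (adjusted p = 0.0576). mt-Co1, the catalytic core of complex IV, changed by -0.64 ± 0.25 (SE; edgeR adjusted p = 0.0265), and this call too was lost without replicate 5 of control (adjusted p = 0.063).

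mt-Nd6 is the only protein-coding gene of the opposite strand, and it stood apart in direction. It was at 12.3, 25.3 and 31.0 CPM in control and 19.1, 40.7 and 56.1 CPM in organoid AKP, a log2 difference of 0.70 ± 0.35 that missed the threshold (SE; edgeR adjusted p = 0.0756). It passed with only the lines compared, with the letter as a term and with the replicate block (edgeR adjusted p = 0.0286, 0.0218 and 0.0129), at 0.68 to 0.73. mt-Nd3 and mt-Atp8, with means of 1.17 and 0.483 CPM in control, had log2 differences of -0.51 ± 0.48 and 0.01 ± 0.56 and passed no test.

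Within the 6 libraries of each letter, 5 mitochondrial genes were lower with E and 6 with F, where 32.8% and 36.7% of all genes were lower. mt-Cytb had a log2 change of -1.40 with E and -1.34 with F, mt-Nd4 of -0.99 and -0.86, and mt-Nd5 of -0.88 and -0.57. mt-Nd1 was the exception, at -0.10 with E and -0.59 with F, and it was the only mitochondrial gene whose change differed between letters (-0.43, edgeR adjusted p = 0.00706), beside 7.48% of all genes with a lower and 5.72% with a higher change in F.

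**Figure D3:**
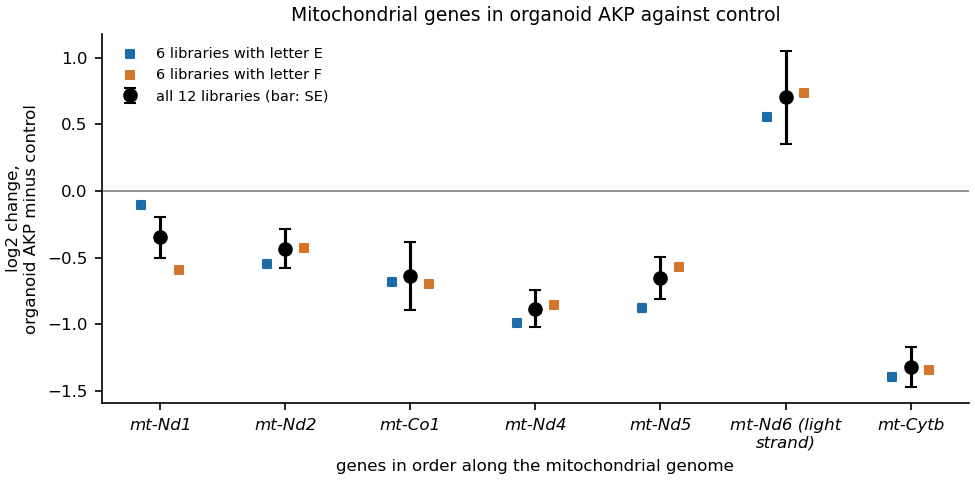
Log2 change in organoid AKP against control for 7 mitochondrial genes in genome order, as black points with SE bars over 12 libraries and as squares for the 6 libraries of each letter. mt-Cytb lies lowest, at -1.32, and mt-Nd6 above 0, at 0.70.

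Several other transcript classes moved between the same libraries, and their part in the mitochondrial result was not tested. The list of stress and nuclear RNAs, used as a sign of RNA quality, summed to 11128 to 28336 CPM in control and 4405 to 8241 CPM in organoid AKP, with 2 of 10 tested members higher and 5 lower. It is led by the nuclear RNA Malat1, whose mean was 17043 CPM in control and 5443 CPM in organoid AKP. Cytosolic ribosomal protein genes, which share the poly(A) pool, summed to 47249 to 57214 CPM in control and 66608 to 83283 CPM in organoid AKP, with 75 of 85 tested members higher and 2 lower. The epithelial markers summed to 9365 to 10779 CPM in control and 3073 to 3556 CPM in organoid AKP, with 6 of 7 lower, 0 higher and a median log2 change of -1.78. Scaling with the mitochondrial genes left out of the library sizes changed none of the mitochondrial and nuclear counts by more than 1.5 times.

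Among the nuclear genes, 17 of 90 were higher and 35 lower in organoid AKP than in control, with a median log2 change of -0.04. These shares lie below and near the background above. By complex the directions were uneven, with 8 higher and 6 lower of 37 in complex I, 4 and 0 of 8 among its assembly factors, 0 and 2 of 4 in complex II, 2 and 6 of 8 in complex III, 1 and 12 of 15 in complex IV, and 2 and 9 of 18 in complex V. The count of 17 higher fell to 10 without replicate 3 of control, to 11 without replicate 1 of organoid AKP, and to 10 without its replicate 2 or its replicate 3. With both letters together, the tested core of complex I, its 7 nuclear catalytic subunits, gave 0 calls in either direction by edgeR. At an unadjusted p below the threshold 1 member was higher and 0 lower. Opposite changes with the 2 letters can lie under such a count. With E, Ndufs8 was at 76.3, 79.5 and 71.6 CPM in control and 107, 97.5 and 99 CPM in organoid AKP. With F it was at 86, 87.8 and 93 CPM in control and 70.3, 72.9 and 75.9 CPM in organoid AKP. The ranges of Ndufs7 overlapped with each letter.

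Complex I moved gene by gene. Ndufa6, an accessory subunit, was at 492.6, 512 and 582 CPM in the lowest, median and highest control library and 226, 234 and 258 CPM in organoid AKP. It fell by a log2 change of -1.13 ± 0.09 (SE; edgeR adjusted p = 9.54e-14) without overlap. Ndufa12, another accessory subunit, went the other way, from 149, 164 and 182 CPM to 282, 333 and 384 CPM (log2 change 1.005 ± 0.10 SE; edgeR adjusted p = 3.55e-11). Ndufs4, an accessory subunit near the NADH-oxidising end whose loss causes Leigh-like disease, rose by 0.44 ± 0.08 (SE; edgeR adjusted p = 5.69e-06).

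The assembly factors, which help to build complex I but are not part of it, held the 3 largest increases among the genes named for complex I. Ndufaf4 was at 28.8, 31.2, 43.2, 29.2, 33.7 and 29.4 CPM in the 6 control libraries and 146, 158, 156, 90.6, 88.0 and 89.6 CPM in organoid AKP. The log2 change was 1.90 ± 0.26 (SE; edgeR adjusted p = 1.59e-07), and the first 3 organoid libraries, with letter E, lay above the last 3, with letter F. Ndufaf2 rose from a mean of 13.3 ± 3.28 to 44.0 ± 7.91 CPM (SD, n = 6; log2 change 1.74 ± 0.14 SE; edgeR adjusted p = 3.94e-13). Ndufaf6 rose from 5.68 ± 1.06 to 17.3 ± 2.45 CPM (SD, n = 6; log2 change 1.59 ± 0.18 SE; edgeR adjusted p = 1.43e-09). In each of these genes all organoid libraries were above all control libraries.

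Complex II, which oxidises succinate and carries no mitochondrially encoded subunit, had 2 of 4 genes lower. Sdhc, a membrane anchor, was at 157 ± 29.1 CPM in control and 103 ± 8.99 CPM in organoid AKP (SD, n = 6; log2 change -0.61 ± 0.15 SE; edgeR adjusted p = 0.000428). Sdha, the flavoprotein, changed by -0.22 ± 0.09 (SE; edgeR adjusted p = 0.0253), at -0.04 with E and -0.48 with F. Sdhd, the other anchor, was divided by letter in control, at 38.7, 16.5 and 51.2 CPM in control with E against 174, 142 and 197 CPM with F, and it passed no test here.

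Complex III held a sharp contrast between small subunits. Uqcrq was at 296, 329, 292, 374, 379 and 377 CPM in control and 1118, 809, 1023, 772, 697 and 831 CPM in organoid AKP. Uqcrh, the hinge subunit, was at 513, 494, 486, 605, 557 and 569 CPM in control and 212, 260, 263, 194, 193 and 205 CPM in organoid AKP. Both moved without overlap in opposite directions, Uqcrq by a log2 change of 1.36 ± 0.16 (SE; edgeR adjusted p = 7.49e-09) and Uqcrh by -1.28 ± 0.15 (SE; edgeR adjusted p = 4.94e-09). All 8 tested members of complex III passed the threshold, and the other higher one was Uqcrc1, a core protein, by 0.32 ± 0.10 (SE; edgeR adjusted p = 0.00502), at 0.57 with E and -0.03 with F. Cyc1, the cytochrome c1 subunit whose symbol the rule leaves out, was also higher, at 147 ± 17.3 against 91.0 ± 16.3 CPM (SD, n = 6; edgeR adjusted p = 1.36e-06), while Cycs, the soluble carrier cytochrome c, was at 29.5 ± 8.56 and 32.9 ± 2.48 CPM (SD, n = 6; edgeR adjusted p = 0.307).

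Complex IV, the oxidase, had 12 of 15 genes lower and 1 higher. With letter E alone 5 of 14 were lower and 2 higher, and with letter F alone 13 of 15 were lower and 1 higher. Cox6b1 was at 410, 422 and 439 CPM in control and 227, 276 and 339 CPM in organoid AKP (log2 change -0.60 ± 0.09 SE; edgeR adjusted p = 3.43e-07). Cox8a fell from 424 ± 30.6 to 281 ± 26.5 CPM (SD, n = 6; log2 change -0.59 ± 0.09 SE; edgeR adjusted p = 2.32e-07). Cox4i1, the largest nuclear subunit and a regulator of the enzyme, changed by -0.33 ± 0.08 (SE; edgeR adjusted p = 0.000482), at -0.15 with E and -0.61 with F.

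The tissue-restricted isoforms of complex IV are known from heart, muscle, testis and lung, and 3 of the 8 listed could be tested. Cox7a1, the heart and muscle form of subunit 7a, fell from 15.7 ± 2.78 to 6.62 ± 1.17 CPM (SD, n = 6; log2 change -1.23 ± 0.19 SE; edgeR adjusted p = 6.49e-07). Cox6b2, the testis form, had 47 reads over the control libraries and 2 over organoid AKP, a ratio of 24.2 with a 95% exact (Clopper-Pearson) counting interval of 6.34 to 206, for counting error only. Cox6a2, the heart and muscle form of subunit 6a, had 0 reads in all 6 control libraries and 28 over organoid AKP, which is at least 9.07-fold higher against a floor of 3 counts over the control group. The remaining isoforms had 0 to 3 reads over all libraries.

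In complex V, 9 of 18 genes were lower and 2 higher. Atp5f1d, the delta subunit of the central stalk, was at 315, 366 and 413 CPM in control and 226, 232 and 278 CPM in organoid AKP, and fell without overlap (log2 change -0.58 ± 0.08 SE; edgeR adjusted p = 1.02e-07). Atp5if1, the inhibitor that blocks ATP hydrolysis by the enzyme, went from 681 ± 45.9 to 518 ± 21.3 CPM (SD, n = 6; log2 change -0.39 ± 0.06 SE; edgeR adjusted p = 2.29e-06). The higher ones were Atp5mc1, a gene for the c-ring, and Atp5f1b, the catalytic beta subunit, by 0.57 ± 0.20 and 0.17 ± 0.08 (SE; edgeR adjusted p = 0.0135 and 0.0374). Neither was called with letter F. Atp5mc1 changed by 1.13 with E and -0.15 with F, a difference past the threshold (edgeR adjusted p = 3.07e-06), and Atp5f1b by 0.26 and 0.005 (adjusted p of the difference 0.292). With F alone, 14 of the 18 were lower and 0 higher.

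**Figure D4:**
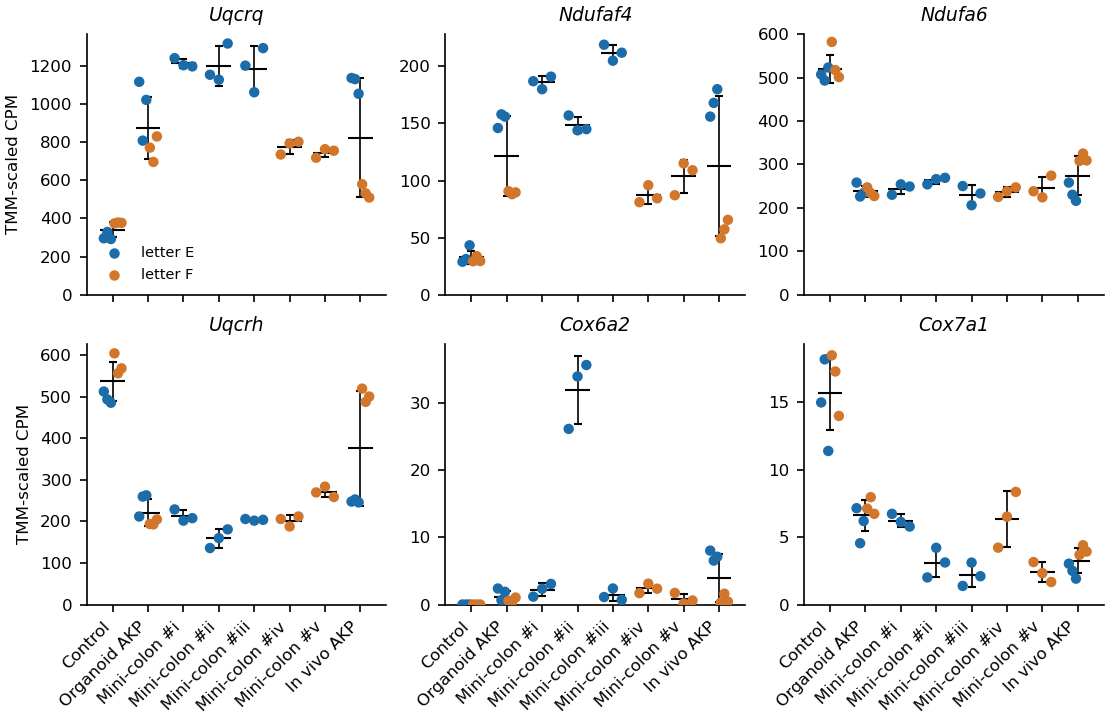
TMM-scaled CPM of 6 nuclear genes in each library of the 8 lines, as points coloured by library letter with the mean and SD of each line. Uqcrq and Ndufaf4 are above control in all AKP lines, Ndufa6 and Uqcrh below it except for the highest in vivo AKP libraries of Uqcrh, and Cox6a2 reaches 26.1 to 35.6 CPM in #ii alone.

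For the nuclear group, this comparison was not the same in the 2 sets of libraries. With letter E, 30 of 89 tested nuclear genes were higher and 16 lower, beside 34.8% of all genes higher and 32.8% lower. With letter F, 10 of 90 were higher and 53 lower, beside 35.7% higher and 36.7% lower. The change differed between letters in 38 nuclear genes, and in 37 of these it was the lower one with F, 13 in complex I, 6 in complex III, 6 in complex IV and 10 in complex V among them. Over all genes, 7.48% had a lower and 5.72% a higher change with F. Over 89 genes, 36 were lower with both letters, 20 higher with both and 33 of opposite sign. Ndufa6, Ndufa12, Ndufaf2, Ndufaf6, Uqcrh, Uqcrq, Ndufaf4, Cox7a1, Cox6b1, Cox8a, Atp5f1d and Ndufs4 passed the threshold with either letter alone. Between letters within a line, 19 nuclear genes were higher and 2 lower with F in control (background 12.6% and 9.32%), 2 and 42 in organoid AKP (background 15.6% and 14.6%), and 11 and 37 in in vivo AKP (background 24.7% and 23.1%). The mitochondrial calls, 3, 5 and 6 in these lines, were all higher with F. Depth moved with the letter in control and organoid AKP, and its part was not tested.

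**Figure D5:**
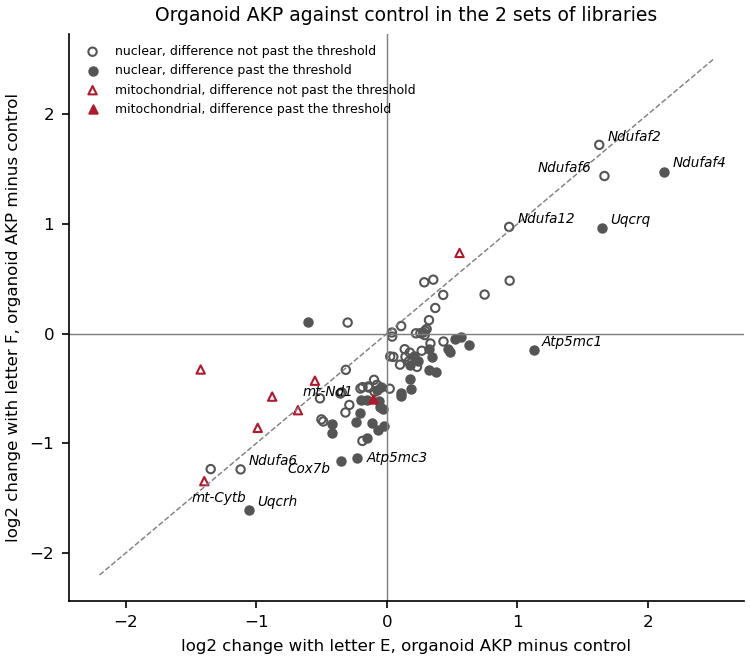
Log2 change in organoid AKP against control with letter F (vertical) against letter E (horizontal) for the oxidative phosphorylation genes, with filled symbols where the 2 changes differed past the threshold and a dashed line of equality. Cox6a2 is left out, since its control libraries hold no read. Most filled circles are nuclear genes under the line, and mt-Cytb lies on it near -1.40 and -1.34.

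Promoter sequence was examined because nuclear respiratory genes are classically bound by NRF1, GABPA (NRF-2) and YY1. RefSeq promoters of GRCm38.p6, from before to just after each gene's start, were matched for 76 of the 97 nuclear genes. The NRF1 motif in its palindromic consensus form, searched on both strands as the other motifs were, occurred in 18 of them (23.7%) and in 6.60% of 17491 promoters of protein-coding genes, of the same length. The YY1 letters AAGATGGC occurred in 10 (13.2%, against 3.22%), the GABPA letters CCGGAAGT in 5 (6.6%, against 5.29%) and the E-box CACGTG in 6 (7.9%, against 7.90%). Of the 18 genes with the NRF1 motif, 4 were higher, 6 lower and 8 not called in organoid AKP. Ndufaf4 and Ndufa6, which moved in opposite directions, both hold it, as the capitals show, in Ndufa6 on the strand opposite to the one printed.

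Ndufaf4 promoter, GRCm38.p6 chr4:24897833-24898132, plus strand: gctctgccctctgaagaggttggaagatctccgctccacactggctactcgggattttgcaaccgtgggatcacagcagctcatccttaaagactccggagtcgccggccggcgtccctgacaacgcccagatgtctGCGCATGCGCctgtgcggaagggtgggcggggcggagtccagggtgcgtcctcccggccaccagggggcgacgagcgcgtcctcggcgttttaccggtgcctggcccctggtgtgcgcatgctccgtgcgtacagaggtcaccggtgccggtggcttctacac
Ndufa6 promoter, GRCm38.p6 chr15:82354242-82354541, minus strand: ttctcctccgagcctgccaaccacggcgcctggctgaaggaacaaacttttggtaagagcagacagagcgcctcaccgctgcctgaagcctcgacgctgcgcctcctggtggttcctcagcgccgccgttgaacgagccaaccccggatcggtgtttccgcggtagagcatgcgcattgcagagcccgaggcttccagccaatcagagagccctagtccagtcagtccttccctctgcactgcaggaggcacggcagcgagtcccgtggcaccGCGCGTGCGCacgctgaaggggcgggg

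A match is a description of letters and not of binding. The genes for NRF1, GABPA and YY1 themselves were higher in organoid AKP, at log2 changes of 0.40 ± 0.11 (Nrf1; edgeR adjusted p = 0.00115), 0.93 ± 0.12 (Gabpa; edgeR adjusted p = 1.85e-08) and 0.15 ± 0.07 (Yy1; edgeR adjusted p = 0.0407), all SE.

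Genes that make or handle the mitochondrial RNAs did not fall with them. Of 32 genes of mitochondrial transcription and RNA handling, 24 were higher and 3 lower in organoid AKP, with a median log2 change of 0.74. Tfam, which packs and transcribes the mitochondrial genome, was at 79.3 ± 11.7 against 38.4 ± 4.66 CPM (SD, n = 6; edgeR adjusted p = 1.93e-11), and Polrmt, the RNA polymerase, changed by 0.73 ± 0.18 (SE; edgeR adjusted p = 0.000468). Lrpprc and Slirp, the pair that stabilises mitochondrial messengers, changed by 1.61 ± 0.25 and 1.24 ± 0.15 (SE; edgeR adjusted p = 1.73e-06 and 1.16e-08). Of 78 mitochondrial ribosomal protein genes, 57 were higher and 3 lower, with a median of 0.58.

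Regulators of mitochondrial biogenesis were divided, with 7 of 12 higher and 4 lower and a median log2 change of 0.28. The coactivators Ppargc1a and Ppargc1b fell by log2 changes of -1.36 ± 0.13 and -2.08 ± 0.13, and their partner receptor Esrra by -1.74 ± 0.12 (SE; edgeR adjusted p = 2.38e-11, 7.61e-16 and 2.6e-15). The related coactivator Pprc1 rose by 2.56 ± 0.15 and Myc by 1.93 ± 0.37 (SE; edgeR adjusted p = 9.72e-17 and 3.49e-05). Of the assembly factors outside the rule, 16 of 38 were higher and 10 lower (median 0.19), with Cox16 at -1.33 ± 0.10 and Cox18 at 1.47 ± 0.15, both for complex IV (SE; edgeR adjusted p = 7.79e-14 and 7.82e-11). The citric acid cycle had 8 of 16 higher and 7 lower (median 0.23), and the other carriers and electron transfer genes 4 of 17 higher and 10 lower (median -0.34), the uncoupling protein gene Ucp2 among them at -2.45 ± 0.16 (SE; edgeR adjusted p = 3.06e-15).

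Tumour-derived organoids were set against light-induced ones as in vivo AKP against organoid AKP, which shares the organoid AKP libraries with the comparison above. Here 1 of 9 mitochondrial genes was higher and 0 lower, and 11 of 90 nuclear genes were higher and 8 lower, where 17.4% of all genes were higher and 17% lower. The mitochondrial count of 0 lower was also 0 at an unadjusted p below the threshold, by limma-voom and by DESeq2. The higher gene was mt-Nd6, at 71.7 ± 46.5 against 37.9 ± 13.9 CPM (SD, n = 6), a log2 change of 0.87 ± 0.34 (SE; edgeR adjusted p = 0.044). Its in vivo AKP libraries were 33.3, 30.9 and 39 CPM with E and 72.1, 141 and 114 CPM with F, so the groups overlapped. The call was lost when replicate 1, 3 or 4 of organoid AKP or replicate 4, 5 or 6 of in vivo AKP was left out, with adjusted p between 0.0673 and 0.171.

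Of the nuclear genes, 5 of 37 in complex I were higher and 4 lower, and 3 and 2 of 15 in complex IV. The 11 higher became 20 or 17 without replicate 1 or 3 of organoid AKP. The 8 lower became 2, 4, 4 or 5 without its replicate 1, 2, 3 or 6, and 5 without replicate 1 of in vivo AKP. Cox7a1 fell further, to 3.24 ± 0.93 CPM against 6.62 ± 1.17 (SD, n = 6; log2 change -1.08 ± 0.22 SE; edgeR adjusted p = 0.000168), without overlap. Cox7a2, the form of subunit 7a found in most tissues, was higher by 0.50 ± 0.10 and Cox6b1 by 0.36 ± 0.09 (SE; edgeR adjusted p = 0.000194 and 0.00197). Atp5me, the e subunit of complex V, was at 322, 344 and 383 CPM in the lowest, median and highest in vivo AKP library and 184, 238 and 318 CPM in organoid AKP (log2 change 0.51 ± 0.11 SE; edgeR adjusted p = 0.0003). In complex I, Ndufv3 was higher by 0.41 ± 0.12, while Ndufs4 was lower by -0.26 ± 0.08, Ndufb5 by -0.23 ± 0.08 and Ndufv2 by -0.23 ± 0.08 (SE; edgeR adjusted p = 0.0102, 0.00845, 0.0184 and 0.0185). The assembly factor Ndufaf2 was lower by -0.40 ± 0.13 (SE; edgeR adjusted p = 0.0135). Ndufaf2 and Ndufs4 lost their call without replicate 1 of organoid AKP (adjusted p = 0.0935 and 0.0943), and Ndufb5 and Ndufv2 without any of 5 libraries each.

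The letters divided the in vivo AKP libraries for several of these genes. Uqcrh was at 248, 253 and 246 CPM with E and 520, 488 and 501 CPM with F, and its log2 change against organoid AKP was 0.04 and 1.37, beside 0.77 ± 0.15 over all (SE; edgeR adjusted p = 0.000136). Cox6a2 was at 8.01, 6.53 and 7.10 CPM with E and 0.295, 1.60 and 0.436 CPM with F, a log2 difference of 2.13 and -0.11, beside 1.97 ± 0.61 over all (SE; edgeR adjusted p = 0.0141). Ndufa4, named for complex I and known as a subunit of complex IV, changed by -1.04 with E and -0.09 with F, beside -0.60 ± 0.14 over all (SE; edgeR adjusted p = 0.00102). Ndufaf4 and Uqcrq, not called over all libraries, were at 156, 168 and 180 CPM and 1138, 1132 and 1055 CPM with E against 49.4, 57.2 and 65.5 CPM and 580, 532 and 510 CPM with F. With E alone 10 of 89 nuclear genes were higher and 4 lower, where 13.9% of all genes were higher and 13.9% lower, and with F alone 33 of 90 and 12, where 25.8% and 24.5% were. The change differed between letters in 26 nuclear genes, 19 of them higher with F, and in mt-Nd2, which was 0.40 with E and -0.25 with F (difference -0.69, edgeR adjusted p = 0.00168), beside 9.23% of all genes with a higher and 11.7% with a lower change in F. Vim, from the fibroblast and muscle markers, also rose between these lines, and its summed list was 38.6 to 276 CPM in in vivo AKP and 4.43 to 22.7 CPM in organoid AKP. Its part was not tested.

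The 5 mini-colon lines were each set against organoid AKP, sharing its libraries, to place lines from the chip beside conventional ones. In #i, 17 of 90 nuclear genes were higher and 1 lower (background 3.10% and 4.05%). In #ii, 39 were higher and 2 lower (background 11.9% and 12.7%). In #iii, 12 were higher and 1 lower (background 7.45% and 8.79%), in #iv 1 and 1 (background 2.55% and 2.35%), and in #v 0 and 1 (background 5.11% and 5.48%). The 0 higher in #v was also 0 by limma-voom and DESeq2, with 4 genes at an unadjusted p below the threshold. The lines with more nuclear genes higher all had letter E, so line and letter move together.

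Against the 3 organoid AKP libraries of the same letter, the nuclear counts by line were different. They were 10 higher and 0 lower in #i (background 3.56% and 4.45%), 24 and 3 in #ii (background 11.6% and 12.1%), 8 and 5 in #iii (background 7.69% and 8.58%), 8 and 1 in #iv (background 6.53% and 6.69%), and 19 and 4 in #v (background 14.5% and 13.7%). The counts over all libraries also rested on single ones. In #i the 17 became 2 without its replicate 2 or its replicate 3, 10 without its replicate 1, 32 or 29 without replicate 1 or 3 of organoid AKP and 8 or 7 without its replicate 4 or 5. In #ii the 39 became 21 without its replicate 3, and in #iii the 12 became 4 or 3 without its replicate 1 or 3 and 6, 6 or 7 without replicate 4, 5 or 6 of organoid AKP.

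Mini-colon line #ii stood apart in single genes as well. Cox6a2 was at 26.1, 33.9 and 35.6 CPM in #ii, against 0.42 to 2.38 CPM in organoid AKP and 0.155 to 3.10 CPM in the other mini-colon lines. The log2 change was 4.92 ± 0.59 (SE; edgeR adjusted p = 1.72e-06), and no library of another line came above 8.01 CPM. Ndufs8, a core subunit that carries iron-sulphur clusters, was at 180, 183 and 200 CPM in #ii against 70.3 to 107 CPM in organoid AKP (log2 change 1.12 ± 0.12 SE; edgeR adjusted p = 3.66e-08). Atp5po, the stalk subunit that gives oligomycin sensitivity, was at 592, 563 and 698 CPM against 315 to 393 CPM (log2 change 0.82 ± 0.11 SE; edgeR adjusted p = 1.34e-06). In all, 6 of the 7 core subunits of complex I were higher in #ii.

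Further genes higher in #ii were Ndufb8 by 0.78 ± 0.11, Ndufb4 by 0.66 ± 0.13 and Cox8a by 0.59 ± 0.10 (SE; edgeR adjusted p = 3.58e-06, 0.000331 and 8.7e-05). Cox7a1 and the inhibitor Atp5if1 were its lower ones, by -1.09 ± 0.28 and -0.26 ± 0.08 (SE; edgeR adjusted p = 0.00429 and 0.0158), the Atp5if1 call being lost without replicate 2 of #ii (adjusted p = 0.15). Cox7a1 was lower than in organoid AKP also in #iii (-1.54 ± 0.30) and #v (-1.56 ± 0.28; SE; edgeR adjusted p = 0.000615 and 0.000226), at 2.20 ± 0.87 and 2.38 ± 0.74 CPM (SD, n = 3), but in #i and #iv it was at 6.22 ± 0.48 and 6.37 ± 2.08 CPM (SD, n = 3), near the 6.62 of organoid AKP.

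Opposite to its nuclear genes, #ii was also the only mini-colon line with mitochondrial genes called, 3 of 9 lower and 0 higher. mt-Nd5 was at 223, 332 and 359 CPM in #ii against 425 to 821 CPM in organoid AKP (log2 change -1.02 ± 0.20 SE; edgeR adjusted p = 0.000412), without overlap. mt-Nd2 and mt-Cytb changed by -0.78 ± 0.19 and -0.52 ± 0.18 (SE; edgeR adjusted p = 0.00304 and 0.0379). Without replicate 1 of #ii, the library with the lowest mitochondrial sum, mt-Nd5 alone was called, with adjusted p of 0.0553 for mt-Nd2 and 0.371 for mt-Cytb. The mt-Cytb call was also lost without replicate 4, 5 or 6 of organoid AKP (adjusted p = 0.0677, 0.0814 and 0.0621). Against organoid AKP with letter E, 1 of 8 was lower. In #i, #iii, #iv and #v, 0 mitochondrial genes were called by edgeR, limma-voom or DESeq2, and at an unadjusted p below the threshold 1 was lower in each of #i, #iii and #iv and 0 in #v.

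In #i the genes with the smallest adjusted p were Cox4i1, at 682, 684 and 666 CPM against 407 to 573 CPM in organoid AKP (log2 change 0.53 ± 0.10 SE; edgeR adjusted p = 0.00095), and Cox6b1 by 0.51 ± 0.11 (SE; edgeR adjusted p = 0.00408). Ndufa4, Cox7b and Ndufb6 were higher by 0.56 to 0.72 on the log2 scale over all libraries, and the methyltransferase-like assembly factor Ndufaf7 was the lower one, by -0.59 ± 0.18 (SE; edgeR adjusted p = 0.0447). Its call and those of Ndufa4, Cox7b and Ndufb6 were each lost without replicate 2 or 3 of #i, and that of Ndufaf7 also without replicate 1 of #i or replicate 4, 5 or 6 of organoid AKP. Against the organoid AKP libraries with letter E alone, Cox4i1 changed by 0.39, Cox6b1 by 0.305 and Ndufb6 by 0.49 (edgeR adjusted p = 0.00632, 0.0448 and 0.00586). Ndufa4, at 0.45, Cox7b, at 0.32, and Ndufaf7, at -0.46, were not called there (edgeR adjusted p = 0.104, 0.0646 and 0.232). In #iii, Cox7a2 was higher by 0.52 ± 0.12 and Ndufab1, the mitochondrial acyl carrier, by 0.47 ± 0.11 (SE; edgeR adjusted p = 0.00469 and 0.0047), followed by Atp5po, Ndufb8, Ndufa10 and Ndufb5 by 0.35 to 0.40. Atp5po lost its call without replicate 1 or 3 of #iii, Ndufb8 and Ndufa10 without its replicate 3 and Ndufb5 without its replicate 1, with adjusted p between 0.0607 and 0.162. The assembly factor Ndufaf4 was at 219, 205 and 212 CPM in #iii, beside 88.0 to 158 CPM in organoid AKP (log2 change 0.81 ± 0.28 SE; edgeR adjusted p = 0.0486). Against organoid AKP with letter E alone, the changes in #iii were smaller, 0.45 for Ndufaf4, 0.28 for Cox7a2 and 0.365 for Ndufab1 (edgeR adjusted p = 0.000661, 0.0246 and 0.00598). In #iv, Ndufv2 was lower by -0.45 ± 0.10 and Ndufb5 higher by 0.32 ± 0.09 (SE; edgeR adjusted p = 0.00316 and 0.0407), the latter call being lost without any of 8 libraries.

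Among the mini-colon lines themselves, an F test over the 5 lines called 3 of 9 mitochondrial and 59 of 90 nuclear genes, where 46.7% of all genes were called. By complex these were 28 of 37 in complex I, 5 of 8 assembly factors, 1 of 4 in complex II, 5 of 8 in complex III, 7 of 15 in complex IV and 13 of 18 in complex V. Among the largest F values were those of Cox6a2 (23.2), Ndufs8 (21.1), Atp5po (12.9), Ndufs7 (11.4) and Ndufb8 (11), of which Cox6a2, Ndufs8, Atp5po and Ndufb8 were named above for #ii. With the letter as a term in the model, 37 nuclear genes were called, where 29.6% of all genes were.

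The crypt-enriched line #v was compared with the lumen-enriched line #i. Here 36 of 90 nuclear genes were lower in #v and 1 higher, where 11.9% of all genes were lower and 12.5% higher, and 0 of 9 mitochondrial genes were called by edgeR, limma-voom or DESeq2, with 1 higher and 0 lower at an unadjusted p below the threshold. The median log2 difference of the nuclear group was -0.27, beside 0.03 over all genes. Of the 36, 16 were in complex I, 4 in complex III, 6 in complex IV and 8 in complex V, and 2 were assembly factors. Without replicate 2 or 3 of #i or replicate 1 or 2 of #v the 36 became 21, 22, 20 or 23. Other lists also differed between these lines. The stress and nuclear RNAs summed to 2569 to 3474 CPM in #v and 6380 to 8598 CPM in #i, with 2 of 10 tested members higher and 2 lower. The fibroblast and muscle markers summed to 40.4 to 118 CPM in #v and 4.09 to 8.76 CPM in #i. The part of these lists was not tested. Line #i had letter E and #v letter F in all libraries, so line and letter cannot be told apart in this comparison. A model with the letter as a term takes the letter difference from the other lines. By edgeR it called 12 lower and 0 higher, where 5.10% of all genes were lower and 4.19% higher. At an unadjusted p below the threshold 31 were lower and 0 higher. The term is the same for every line, but the letter difference was not. Nuclear genes with F against E were 19 higher and 2 lower in control, 2 and 42 in organoid AKP, and 11 and 37 in in vivo AKP. This model therefore cannot separate line from letter for #v and #i.

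Cox4i1 was at 435, 469 and 458 CPM in #v, below the 666 to 684 CPM of #i (log2 change -0.58 ± 0.11 SE; edgeR adjusted p = 0.000537). Ndufb9, an accessory subunit, was at 310, 302 and 289 CPM in #i and 190, 187 and 174 CPM in #v (log2 change -0.71 ± 0.14 SE; edgeR adjusted p = 0.00075). None of these ranges overlapped. Atp5mc1 had a log2 change of -1.05 ± 0.28 and Cox7a1 of -1.46 ± 0.33 (SE; edgeR adjusted p = 0.00857 and 0.00195), and Atp5mc1 was also lower with F within organoid AKP, at 48.8, 46.0 and 59.5 CPM against 115, 77.7 and 100 CPM with E. Ndufaf2 and Ndufa13 were lower by -0.80 ± 0.18 and -0.53 ± 0.12 (SE; edgeR adjusted p = 0.00195 and 0.00264). The higher gene was the assembly factor Ndufaf7, at 12.9 ± 0.68 against 8.89 ± 1.83 CPM (SD, n = 3; log2 change 0.54 ± 0.20 SE; edgeR adjusted p = 0.0487), and its call was lost without replicate 1 or 2 of #i or any replicate of #v, with adjusted p between 0.0672 and 0.19.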

How the data were processed

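Gene expression was measured in 33 QuantSeq 3′ mRNA libraries of 8 organoid lines. The authors aligned reads with STAR to GRCm39 and deposited whole-number counts per Ensembl gene for each library, and the submitters' processing notes list R 4.1.2, edgeR and limma. The annotation and strand used for counting are not given in the sources used here. No columns of per-sample values belonged to other samples. Total counts were 2438672 to 8256526 per library, which sets the counting error, and intervals and floors cover counting error only.

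Symbols came from the reference annotation, and 611 identifiers without one held 6.85% of all counts. The filter on low values required 1 CPM or more in any 3 libraries, which 13606 of 32285 genes met. Counts of all lines were fitted together with TMM scaling and edgeR's quasi-likelihood test, 1 term per line, with Benjamini-Hochberg adjustment over all tested genes and a threshold of 0.05. Interaction terms compared library letters. Alternatives were DESeq2 size factors, scaling without mitochondrial genes, no filter, limma-voom, DESeq2, other sets of libraries, the letter or the replicate number as a term, and leaving out each library. R 4.3.3, edgeR 4.0.16, limma 3.58.1, DESeq2 1.42.0, Python 3.11.15, numpy 2.4.6, pandas 2.3.3, numba 0.67.0 and matplotlib 3.10.9 were used, and the fits were tested on simulated data. Genome copies were exact matches of 50-base windows to GRCm39.

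Named were all mitochondrial genes, for each comparison up to 6 nuclear genes per direction with the smallest adjusted p past the threshold, every nuclear gene called with a log2 change of at least 1 in size, the tissue-restricted isoforms, Cyc1 and Cycs, and the 6 largest F values among mini-colon lines. Some genes that this rule names are not reported here. Sdha, Sdhc, Sdhd, Uqcrc1, Cox4i1, Atp5if1, Atp5mc1 and Atp5f1b in organoid AKP against control, Ndufaf4 and Uqcrq in the other comparisons, and the genes named from the other lists were chosen after their values were seen. Members and lists were chosen with earlier results of these data known. No row had the symbol of a listed nuclear mitochondrial pseudogene, and these were not analysed here.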

Additional observations from a re-analysis of the deposited data

Results flagged for a closer look

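In 4 of 135 groups of 6 libraries a single library stood far from the other 5, where chance gives about 1 in 20. Ndufa6 reached 581.9 CPM in replicate 4 of control, Ndufaf4 reached 43.2 CPM in replicate 3 of control, Ndufaf7 reached 17.2 CPM in replicate 5 of in vivo AKP, and Ndufb9 was down at 203.3 CPM in replicate 5 of control.

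The change in organoid AKP against control differed between the library letters in 6 named genes, and in each the log2 change with F was the lower. The difference was -0.63 for Uqcrq, -0.50 for Uqcrh, -0.43 for Cox6b1, -0.43 for mt-Nd1, -0.59 for Ndufaf4 and -0.34 for Atp5f1d (edgeR adjusted p = 0.000509, 0.002, 0.00527, 0.00706, 0.0135 and 0.0458). The change in in vivo AKP against organoid AKP was higher with F in another 6, by 1.29 for Uqcrh, 0.42 for Atp5me, 0.90 for Ndufa4, 0.34 for Cox6b1, 0.43 for Ndufv3 and 0.37 for Ndufv2 (edgeR adjusted p = 3.36e-11, 0.0106, 0.0179, 0.0195, 0.0223 and 0.0225). Both comparisons use the organoid AKP libraries. What the letters stand for is not given, and the cause was not tested.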

How the results depend on the processing

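The lower mitochondrial level in organoid AKP kept its direction in all alternatives run on the summed level. The counts of calls moved more. In organoid AKP against control, 1 mitochondrial gene was higher in a fit of only the lines compared, with the letter as a term or with the replicate block, against 0, and the nuclear counts were 30 higher and 16 lower with letter E, and 10 and 53 with letter F. The log2 ratio of the nuclear sums was 0.067 with E and -0.365 with F, an alternative added after seeing the data. In in vivo AKP against organoid AKP, the 1 mitochondrial gene higher became 0 with no filter, limma-voom, only the lines compared or letter E, 2 with DESeq2 or letter F, and 3 with the letter as a term or the replicate block. The nuclear counts became 17 higher with DESeq2 and 33 with letter F, and 2 lower in only the lines compared and 4 with letter E. Cox6a2 turned to -0.113 (edgeR adjusted p = 0.92) with letter F.

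In #v against #i, 2 mitochondrial genes were higher in only the lines compared or with the replicate block. The 1 nuclear gene higher became 0 with DESeq2 size factors, no filter or the letter as a term, 2 with the replicate block and 4 in only the lines compared, and the 36 lower became 55 in only the lines compared and 12 with the letter as a term. Over all genes, only the lines compared gave 2961 higher and 2900 lower of 11794, beside 1702 and 1625 of 13606 in the main fit. The F test called 5 mitochondrial genes with the replicate block and 37 nuclear genes with the letter as a term. Summed over the mini-colon lines against organoid AKP, mitochondrial calls became 5 higher with the replicate block and 1 lower against the same letter, and nuclear calls lower, 6 at first, became 10 with DESeq2, 13 against the same letter and 30 with the replicate block. All libraries of #iv and #v have letter F but share their replicate numbers with organoid AKP libraries of letter E. The block therefore cannot separate line from letter for #iv and #v. With it, 3259 genes of any kind were called for #iv and 3938 for #v, where the main fit called 667 and 1440. With no filter, 1 mitochondrial gene had a higher change with F in each comparison tested for a difference between letters. Same-numbered libraries correlated at 0.091 to 0.237 between control and organoid AKP, 0.076 to 0.431 between organoid AKP and in vivo AKP, and 0.006 to 0.037 between #i and #v. Same-numbered libraries also share a letter, and measured from the mean of each line and letter the correlations of the first 2 pairs of lines were -0.059 to 0.052, so the numbers were not read as pairs.

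Leaving out each library in turn gave 4 to 6 mitochondrial genes lower and 0 to 0 higher, and 10 to 23 nuclear genes higher and 30 to 38 lower, in organoid AKP against control. It gave 0 to 2 mitochondrial genes higher and 0 lower, and 8 to 20 nuclear genes higher and 2 to 7 lower, in in vivo AKP against organoid AKP. In #v against #i it gave 0 mitochondrial calls, 0 to 1 nuclear genes higher and 20 to 27 lower. The F test gave 2 to 4 mitochondrial and 51 to 58 nuclear genes, and the mini-colon lines together 0 mitochondrial genes higher and 1 to 5 lower, and 39 to 96 nuclear higher and 5 to 8 lower. The log2 ratios of the sums ran from -0.722 to -0.615, 0.037 to 0.144 and -0.176 to 0.175 for the mitochondrial group, and from -0.187 to -0.118, 0.057 to 0.126 and -0.282 to -0.228 for the nuclear group, in these 3 comparisons. Of 1363 alternative values for 70 named results, 1252 kept direction and side of the threshold, 110 lost the call and 1 reversed. The causes were not tested. Genes of few counts, such as mt-Nd3, mt-Atp8 and Cox6b2, are limited by depth.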

Other observations

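In in vivo AKP against organoid AKP, which shares libraries with the comparison against control, the lists around oxidative phosphorylation were also counted, where 17.4% of all tested genes were higher and 17% lower. Genes of mitochondrial transcription and RNA handling gave 1 higher and 4 lower of 32, the mitochondrial ribosomal proteins 9 and 4 of 78, and the assembly factors outside the rule 2 and 8 of 38. The regulators of mitochondrial biogenesis gave 2 higher and 1 lower of 12 and the other carriers 4 and 1 of 17. Cytosolic ribosomal proteins gave 4 higher and 23 lower of 85, and the stress and nuclear RNAs 5 and 1 of 10.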
